A study of Mus musculus with 12 samples.

Results

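Dense clusters of distal accessible regions were taken from the list of merged ATAC-seq peaks of 2 mouse embryonic stem (ES) cell lines. Members were chosen by position alone: autosomal regions 200 to 5000 bp wide whose center lay more than 1 kb from every transcription start site (TSS), in runs of at least 5 neighbors with gaps of at most 3 kb, leaving out chromosome 4 from 145 to 148 Mb. This gave 1455 regions in 245 clusters, out of 170548 regions in the list and 108008 distal regions of that width range. Members therefore made up 1.35% of the distal regions. The other 106553 distal regions lay alone or in smaller chains and are the comparison used below.

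ATAC-seq uses a transposase that tags accessible DNA with adapters, and peaks of the sequenced fragments mark open chromatin. The libraries came from ZHBTc4 cells, in which a Tet-Off promoter drives the OCT4 (Pou5f1) transgene in place of the endogenous gene, and from 2TS22C cells, in which SOX2 is controlled in the same way. ZHBTc4 cells were left untreated (OCT4 ON) or given 1 µg/ml doxycycline for 24 hr (OCT4 OFF), and 2TS22C cells were left untreated (SOX2 ON) or given the same dose (SOX2 OFF), each for 26 hr and for 40 hr, which gives 6 groups of 2 replicates and 12 libraries. All of them grew in serum with LIF and the inhibitors CHIR99021 and PD184352. The paper also used published data of ZHBTc4 cells in serum and LIF alone, and whether their peaks entered the list is not stated. The peaks of all conditions were merged into 1 list without a height or a value per sample, so the data cannot tell in which line or treatment a member was open, the depth behind each region is unknown, and ON and OFF cells were not compared. All 8 ES cell marker genes examined (Pou5f1, Sox2, Nanog, Zfp42, Esrrb, Dppa5a, Klf4 and Tdgf1) had at least 1 region within 1 kb of a TSS. The same share over all protein-coding genes was not computed, so this does not test the identity of the cells.

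Regulatory elements away from promoters often lie in groups. In ES cells, dense groups of enhancers bound by OCT4, SOX2 and their partners are known to lie beside genes of the pluripotency network, where several elements can act on the same promoter. Groups of accessible regions can also lie in DNA that is present in many copies, such as tandem gene families and transposable elements, where short reads are hard to place.

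Sequences of members were read from GRCm38 (mm10), 200 bases around the center, to show motif letters in clusters near Tcf7l1, Pou5f1 and Dppa5a, in a dense cluster at Cbfa2t2, and in the only member with the OCT4-SOX2 composite element, at Ntm. No member in a cluster within 50 kb of a gene on the pluripotency, ES cell marker, formative, trophectoderm or primitive endoderm lists held that element, so these 6 centers were chosen after their matches were seen. Capitals mark the matched letters, each sequence is written in the direction in which those letters read, and a match is a description of the letters only. The Tcf7l1 center (chr6:72758485-72758684, plus strand) lies in an intron of Tcf7l1, which encodes a TCF factor that restrains the pluripotency network downstream of Wnt signaling. The Pou5f1 centers (chr17:35485901-35486100 and chr17:35490502-35490701, both minus strand) are intergenic and upstream of Pou5f1. The Dppa5a center (chr9:78374713-78374912, plus strand) is intergenic and upstream of Dppa5a, an ES cell marker that encodes an RNA-binding protein. The Cbfa2t2 center (chr2:154501845-154502044, plus strand) lies in an intron of Cbfa2t2, which encodes a transcriptional corepressor, and its central 31 bases occur at 2 places in the genome. The Ntm center (chr9:29657824-29658023, minus strand) lies in an intron of Ntm, which encodes a neural cell adhesion protein, and holds the composite element with 1 mismatch.
Tcf7l1 cluster with the octamer: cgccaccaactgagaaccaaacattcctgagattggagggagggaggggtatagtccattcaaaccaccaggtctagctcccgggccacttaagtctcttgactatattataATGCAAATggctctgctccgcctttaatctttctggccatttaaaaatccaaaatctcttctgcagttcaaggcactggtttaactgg
Pou5f1 cluster with the ESRRB letters: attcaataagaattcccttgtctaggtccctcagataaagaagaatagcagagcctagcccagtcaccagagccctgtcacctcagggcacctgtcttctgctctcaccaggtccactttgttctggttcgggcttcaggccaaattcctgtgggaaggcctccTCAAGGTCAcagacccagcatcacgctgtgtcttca
Pou5f1 cluster with the SOX letters: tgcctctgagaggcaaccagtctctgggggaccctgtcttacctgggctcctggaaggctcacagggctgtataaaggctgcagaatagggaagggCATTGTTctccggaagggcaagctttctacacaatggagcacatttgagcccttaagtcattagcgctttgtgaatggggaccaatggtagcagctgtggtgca
Dppa5a cluster with the KLF letters: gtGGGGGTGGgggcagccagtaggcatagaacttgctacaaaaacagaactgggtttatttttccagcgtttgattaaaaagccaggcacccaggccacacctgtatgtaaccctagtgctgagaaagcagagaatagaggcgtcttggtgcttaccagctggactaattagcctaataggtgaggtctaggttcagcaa
Cbfa2t2 cluster with the octamer: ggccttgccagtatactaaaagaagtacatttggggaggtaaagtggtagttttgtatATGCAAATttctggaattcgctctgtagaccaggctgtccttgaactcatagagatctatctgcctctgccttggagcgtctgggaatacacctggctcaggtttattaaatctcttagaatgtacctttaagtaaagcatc
Ntm cluster with the composite element: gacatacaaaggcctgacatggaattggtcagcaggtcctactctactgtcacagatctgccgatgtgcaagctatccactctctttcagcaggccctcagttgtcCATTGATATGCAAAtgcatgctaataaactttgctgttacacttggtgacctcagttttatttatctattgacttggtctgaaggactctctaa

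The selection fixed the density of the clusters, so their size and length are given as a description. Of the 245 clusters, 153 held 5 regions, 68 held 6 or 7 and 24 held 8 or more, and the 24 largest contained 257 regions. Clusters spanned 3792 to 28771 bp with a median of 8844 bp and quartiles of 6865 and 10574 bp. Members were 384 bp wide at the median, against 427 bp for the other distal regions, and covered 28.4% of the span of their cluster at the median. Neighbors in a cluster were separated by a median gap of 1185 bp. At the limits of the rule, the 153 chains of 5 had a median span of 7792 bp, and the 602 chains of 4 just outside it had a median span of 5894 bp. The widest gap inside a cluster was 2996 bp, and the nearest distal region outside any cluster lay 3016 bp away. The shortest cluster packed 6 regions into 3792 bp near Gm31371 on chromosome 8, and the longest spread 15 regions over 28771 bp in Cbfa2t2.

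**Figure D1:**
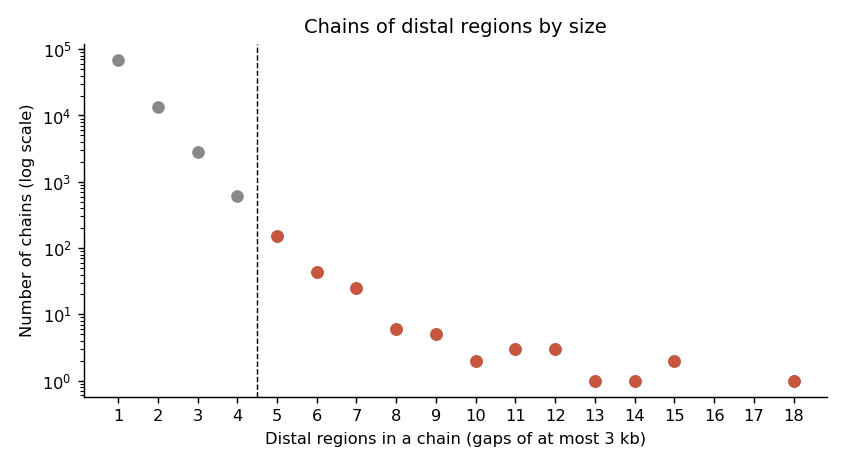
Number of chains (log scale) against the number of distal regions in a chain, with neighbors joined across gaps of at most 3 kb. Red points right of the dashed line are the clusters; their number falls from 153 chains of 5 to 1 chain of 18.

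The rule kept members away from TSSs but not their spans, and few promoters lay inside them. A promoter-proximal region lay inside 7 clusters, and 82 distal regions narrower than 200 bp lay inside 57 clusters. A TSS of any gene fell inside 14 clusters, among them the cluster at Dppa5a. Beyond their ends the clusters sat in region-rich surroundings: in the stretches from 3 to 50 kb on either side, the median was 11.7 distal regions per 100 kb, against 7.45 beside chains of 2 to 4 and 5.32 beside regions alone. The mean over all autosomes was 4.52 distal regions per 100 kb, and 218 of 245 clusters had denser surroundings than that. Regions alone also had a median above that mean. Beside the 37 clusters in which at least 50% of members had copied centers (described below) the median was 17.0, and 10.6 beside the others. The stretches beyond 3 kb were not part of the rule. The rule picks places dense in regions of the same list, so denser surroundings are a description and not an independent result.

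The 12 clusters with the most regions held 10 to 18 regions each and did not lie near genes of the pluripotency lists. The largest, 18 regions over 22135 bp on chromosome 18, overlapped Garem1, which encodes an adaptor protein of growth factor receptor signaling, with 14 centers in introns, 3 in exons and 1 outside the gene. The nearest protein-coding TSS, 53.9 kb away, was that of Mep1b, which encodes a subunit of the metalloprotease meprin. None of its 18 centers had a copy elsewhere in the genome. A cluster of 15 regions filled introns of Cbfa2t2 on chromosome 2, and another of 15 regions over 24589 bp filled introns of Peak1, which encodes a cytoskeleton-associated pseudokinase, on chromosome 9. Each of these genes was also nearest to a further cluster, of 7 regions. The Peak1 clusters were the only ones of the 245 within 100 kb of a region wider than 5 kb: a stretch of 58315 bp in the list lay 12.4 kb from the smaller and 26.4 kb from the larger, and its part in these clusters was not tested.

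The next clusters lay in introns, around promoters or far from genes. The cluster at Vkorc1l1, which encodes a vitamin K epoxide reductase, put 14 regions into 13877 bp, 11 of them in introns and 3 in exons. At Fkbp1a, which encodes the FK506-binding prolyl isomerase, 12 regions in 12613 bp were all intronic and covered 52.3% of the span. At Ube2e1, which encodes a ubiquitin-conjugating enzyme, 12 regions in 15692 bp were all intronic, and a neighboring cluster of 9 regions lay in the same gene. The cluster nearest to Mroh6 on chromosome 15 held 11 regions over 22555 bp and contained a TSS of that gene. The Trpm1 cluster of 13 regions, the Tmco5 cluster of 11 and the Scaf8 cluster of 10 were intergenic in all their members, at 65.4 kb, 316 kb and 92.2 kb from the gene named. Trpm1 encodes a cation channel of the retina, and Scaf8 an RNA polymerase II-binding protein. In the Scaf8 cluster the regions were wide, with a median of 1005.5 bp, and covered 76.1% of the span. At the median, repeats marked in the reference made up 54.0% of members at Trpm1, 27.7% at Tmco5 and 53.0% at Scaf8. The central 31 bases of 4 Trpm1, 2 Tmco5 and 2 Scaf8 members occurred at more than 1 place in the genome.

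**Figure D2:**
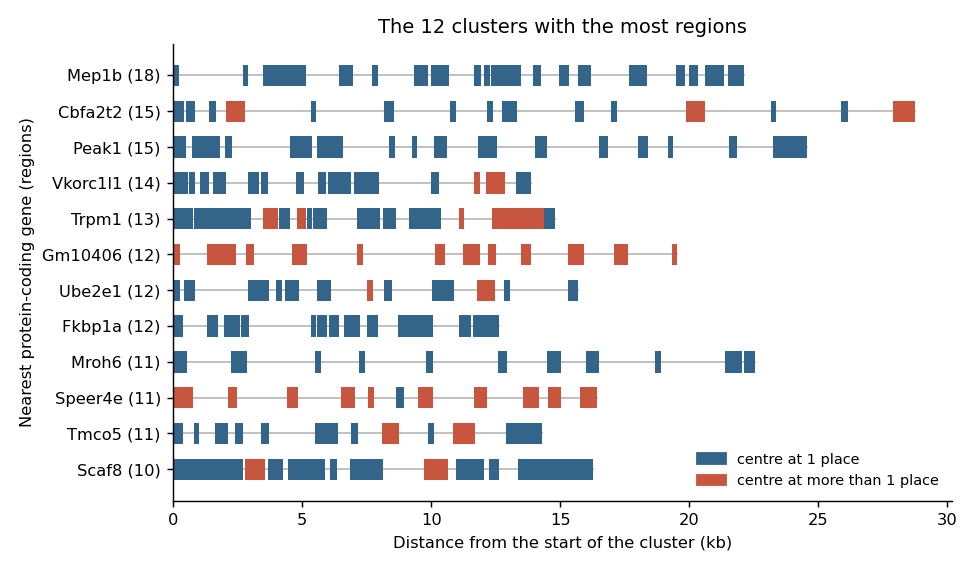
The 12 clusters with the most regions, named by the nearest protein-coding gene with the number of regions in brackets; the x axis is the distance from the start of the cluster in kb. Bars are regions, red where the central 31 bases occur at more than 1 place in the genome: all 12 regions near Gm10406 and 10 of 11 near Speer4e are red, and none near Mep1b, Peak1, Fkbp1a or Mroh6.

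Members had exact copies of their centers elsewhere in the genome more often than other distal regions. The central 31 bases of 276 members (18.97%, 95% interval 17.0 to 21.1) occurred at more than 1 place in the genome, against 11.1% (10.9 to 11.3) of the other distal regions, and for 196 members (13.5%) against 3.92% a copy lay within 1 Mb. The difference was carried by few places: 143 clusters had no copied member, and in 37 clusters with 232 regions at least 50% of the members were copied. Of these 37 clusters, 11 lay on chromosome 8, 9 on chromosome 5 and 4 each on chromosomes 13 and 14. By chromosome, the copied share was higher in members than in other distal regions on 9 of 19 autosomes and lower on 10. Outside these 37 clusters, 6.87% (5.58 to 8.43) of the 1223 members were copied, below the 11.1% of the other distal regions, a share that the split by copied members itself lowers.

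These multicopy clusters followed gene families and lay in rows. The genes nearest to the most clusters were Gm31371 and Gm15319 with 4 clusters each, Gm21119 with 3 and Enc1, which encodes an actin-binding kelch protein, with 3. Cbfa2t2, Peak1, Prl2c2, Speer4d, Zfp184 and Rbpms came next with 2 each. The clusters of Gm31371, Gm15319 and Gm21119 all lay on chromosome 8 between 19908905 and 20594170 bp, and 60 of their 68 regions were copied. On chromosome 5, 6 clusters with 35 regions stood within 213 kb beside Speer4d, Speer4c and predicted genes, 29 of the 35 regions copied. Speer genes form a multicopy family of glutamate-rich proteins expressed in testis. On chromosome 13, 4 clusters with 24 regions, 15 of them copied, lay within 205 kb at Prl2c2 and Prl2c3, members of the expanded prolactin family. In contrast, the 3 Enc1 clusters held no copied region. In all, 52 of the 245 clusters stood in 21 neighborhoods of at least 2 clusters with less than 100 kb between neighbors.

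Some of the copies lay in other members. Of the 276 copied members, 60 had their central 31 bases inside another member, 16 of them in the same cluster and 54 in another cluster. Copied members had a median of 8 places in the genome, 58 had exactly 2, 52 had more than 100 and the highest number was 14824. A pair of members on chromosome 8, chosen after the copies were seen, shows this: the sequence at chr8:19933896-19934095 belongs to a cluster of 6 regions near Gm31371, and that at chr8:20526737-20526936 to a cluster of 10 near Gm21119. Capitals mark the 31 bases at the center of the Gm31371 member, which occur at 12 places in the genome. Over 200 bases the pair differs at 7 positions (3.5%).
Gm31371 cluster: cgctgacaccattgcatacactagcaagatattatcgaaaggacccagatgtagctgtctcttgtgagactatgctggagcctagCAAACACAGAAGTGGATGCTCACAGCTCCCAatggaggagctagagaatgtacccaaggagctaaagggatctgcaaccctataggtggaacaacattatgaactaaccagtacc
Gm21119 cluster: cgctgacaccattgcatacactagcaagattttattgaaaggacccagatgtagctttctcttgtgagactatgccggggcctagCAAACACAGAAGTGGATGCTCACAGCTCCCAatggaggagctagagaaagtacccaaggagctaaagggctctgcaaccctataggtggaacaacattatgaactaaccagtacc

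Small and large clusters differed in sequence. Soft-masked bases, which mark repeats in the reference, made up 17.5% of a member at the median, against 13.5% in the other distal regions, and 34.9% in clusters of 8 or more. GC content was 48.3% in members and 48.4% in the other distal regions at the median, but 45.3% in clusters of 8 or more. The ratio of observed to expected CpG was 0.208 in members, 0.227 in the others and 0.134 in clusters of 8 or more. The low CpG ratio was also seen in the 16 clusters of 8 or more that were mainly not copied (182 regions), with a median of 0.129 at a GC content of 46.9% and 23.3% masked bases. Only exact copies were counted, and these 16 clusters were not free of repeats. In them 25.8% of the regions were more than 50% masked, against 18.2% of the other distal regions. In the 37 multicopy clusters the median member had 57.3% masked bases, 43.6% GC and a CpG ratio of 0.148. By chromosome, masked bases were higher in members on 13 of 19 autosomes and lower on 6, and GC content was higher on 8 and lower on 11.

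**Figure D3:**
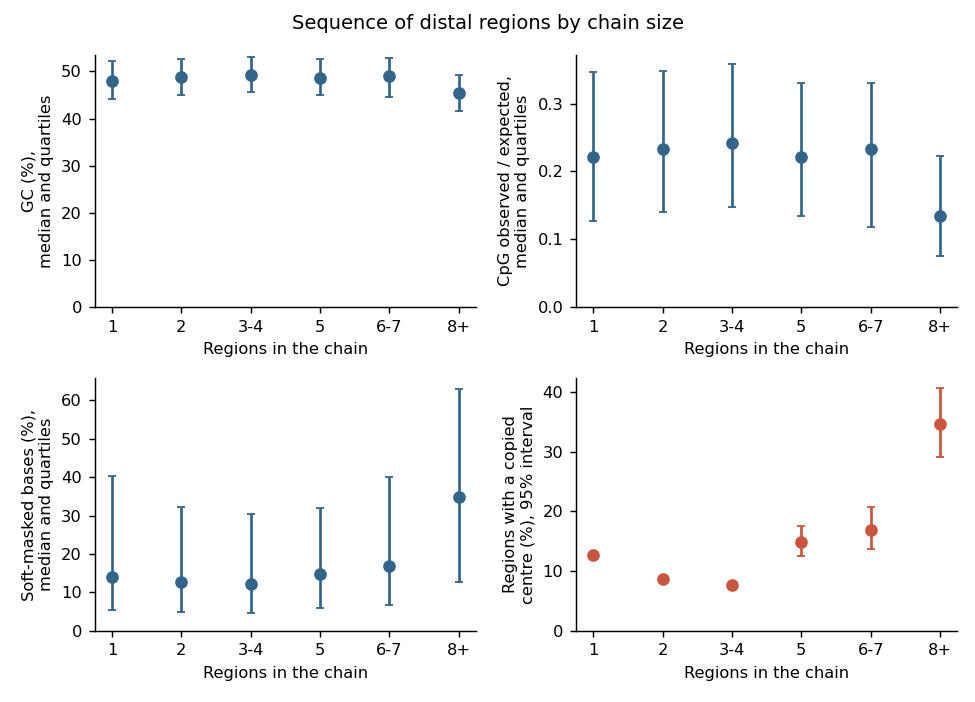
GC content, observed over expected CpG and soft-masked bases (points are medians, bars the quartiles over regions) and the share of regions with a copied center (bars are 95% Wilson intervals), against the number of regions in the chain. The copied share was 12.6% for regions alone, 8.67% in chains of 2, 7.64% in chains of 3 or 4 and 34.6% in clusters of 8 or more. In the 16 clusters of 8 or more that were mainly not copied (not drawn) it was 11.5%, a share that the split itself lowers. The CpG ratio was 0.222 for regions alone, 0.234 in chains of 2, 0.242 in chains of 3 or 4 and 0.134 in clusters of 8 or more.

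Members were centered in introns about as often as other distal regions. Of the members, 45.9% (95% interval 43.4 to 48.5) were centered in introns, 48.8% (46.2 to 51.4) in intergenic DNA and 5.29% (4.25 to 6.56) in exons, against 46.5%, 46.8% and 6.72% of the other distal regions. In the multicopy clusters the intergenic share was 62.5% (56.1 to 68.5). In the 16 large clusters that were mainly not copied the intronic share was 59.9% (52.6 to 66.7), and 8 of these 16 lay wholly inside a protein-coding gene. Regions of a cluster mostly share their placement: all 15 regions of the larger Cbfa2t2 and Peak1 clusters were intronic, and all 13 of the Trpm1 cluster intergenic. These intervals count regions and not clusters, so they are too narrow to show a preference for introns or intergenic DNA. Over all 245 clusters, 88 lay wholly inside a protein-coding gene, 17 only inside a gene of another type, and 105 touched no annotated gene. The multicopy clusters supplied 2 of the 88.

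The nearest TSS of a protein-coding gene lay 15415 bp from the edge of a cluster at the median, with quartiles of 5895 and 36092 bp. A protein-coding TSS lay within 10 kb of 96 clusters and within 50 kb of 197, and 18 clusters had none within 100 kb. The 245 clusters had 218 different nearest genes, 21 of which were nearest to at least 2 clusters. Beside the 10 genes named above, 11 genes were nearest to 2 clusters each, with 10 or 11 regions in all: Med13l, Smarcad1, Cyp3a41b, Dynlt1b, Foxk1, Msi2, Nfib, Prl2c3, Tmem154, Vmn1r2 and Zfp386. They were named after their values were seen, and they encode proteins as different as a Mediator subunit (Med13l), a chromatin remodeler (Smarcad1), a cytochrome P450 (Cyp3a41b), a dynein light chain (Dynlt1b) and a vomeronasal receptor (Vmn1r2).

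Clusters were unevenly spread over the autosomes, at 10.2 per 100 Mb of assembled sequence. Chromosome 5 held 33 clusters (22.3 per 100 Mb) and chromosome 8 held 23 (18.3 per 100 Mb), 9 and 11 of them multicopy. Chromosome 19 held 2 (3.44 per 100 Mb) and chromosome 7 held 6 (4.23 per 100 Mb). Members made up 2.65% of the distal regions of chromosome 5 and 0.411% of those of chromosome 19.

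Few genes of the pluripotency network had a cluster nearby. Of 25 pluripotency transcription factors on autosomes, 2 (8%, 95% interval 2.22 to 24.97) had a cluster within 50 kb of a TSS, Pou5f1 and Tcf7l1, against 417 of 20807 protein-coding genes (2.00%). The lower limit of that interval lay just above the share over all genes, and the count rests on 2 genes. Of 22 ES cell marker and effector genes, 1 had a cluster (Dppa5a), and of 18 trophectoderm genes, 1 (Cldn4, a tight junction claudin). Of 20 signaling receptors and feedback genes, 1 had a cluster (Axin2, a scaffold that feeds back on Wnt signaling). None of 16 formative and epiblast genes and none of 18 primitive endoderm genes had a cluster. Of 72 cytosolic ribosomal protein genes, 2 had clusters (Rpl15 and Rps20), and of 1087 olfactory receptor genes, 6 (0.552%), 5 of them beside the same cluster on chromosome 7.

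Pou5f1 encodes OCT4, the factor withdrawn in ZHBTc4 cells. Its cluster of 5 regions, at chr17:35484147-35490849, lay between H2-Q10, an MHC class I gene with the nearest TSS, and Pou5f1. The 5 centers were 21.6, 20.02, 17.8, 16.3 and 15.4 kb upstream of the Pou5f1 TSS, all intergenic, and the regions were 471, 637, 252, 438 and 495 bp wide. The center at 20.02 kb held the ESRRB letters and that at 15.4 kb the SOX letters, as printed above, and the other 3 held none of the 11 motifs searched. The central 31 bases of the region at 17.8 kb occurred at 3 places in the genome.

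Tcf7l1 held its 6 regions inside the gene, at chr6:72758312-72770571, with centers 18.3 to 30.0 kb downstream of the TSS and all in introns. The widths were 547, 230, 648, 420, 280 and 625 bp. The center at 30.0 kb held the octamer, that at 20.4 kb the SOX letters and that at 18.3 kb the KLF letters. None of the 6 had a copied center.

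Dppa5a was surrounded by its cluster. The 5 regions at chr9:78364644-78375263 lay on either side of the TSS, with centers 3.28 and 1.92 kb downstream and 1.37, 3.38 and 6.64 kb upstream. All 5 were intergenic and had no copied center, and their widths were 501, 749, 208, 225 and 901 bp. The TEAD letters were at the region 3.38 kb upstream and the KLF letters at the widest region, 6.64 kb upstream.

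The clusters of Cldn4, Axin2, Rpl15 and Rps20 each lay on 1 side of the TSS. The Cldn4 cluster (chr5:134963440-134973751) held 6 intergenic regions 16.7 to 26.7 kb upstream of Cldn4, and its nearest gene was Cldn3, which encodes another claudin. The Axin2 cluster (chr11:108887026-108894475) held 5 intergenic regions 26.1 to 33.2 kb upstream, 201 to 727 bp wide. Rpl15 lay beside both Ube2e1 clusters, whose 21 regions were 12.4 to 41.6 kb upstream of its TSS. The Rps20 cluster (chr4:3823021-3830500) held 5 intergenic regions 4.93 to 12.0 kb downstream.

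The number of pluripotency genes with a cluster depended on how dense a cluster had to be. With chains of at least 4 regions, 8 of 25 pluripotency factors (32%) had a cluster within 50 kb, against 6.71% of all protein-coding genes. These were Esrrb, Id1, Klf2, Pou5f1, Tbx3, Tcf7l1, Tfcp2l1 and Zfp281. With gaps of up to 5 kb, 12 of 25 (48%) had a cluster, against 8.94% of all genes, and these included Nanog, Sox2, Klf5, Sall1, Stat3 and Zfp42. Under that setting the share was 36.4% for ES cell marker and effector genes (8 of 22, among them Dppa2, Dppa3, Dppa4 and Tet2), 30% for signaling genes (6 of 20), 22.2% for the trophectoderm and for the primitive endoderm list (4 of 18 each) and 12.5% for formative genes (2 of 16). Ribosomal protein genes reached 11.1% and olfactory receptor genes 1.66%. Under the rule as applied throughout, Sox2, which encodes the factor withdrawn in 2TS22C cells, had its nearest cluster 1069327 bp away.

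Letters bound by OCT4 and SOX2 had no higher share in members than in other distal regions. Matches on either strand were looked for in the 200 bp around each center and in flanking windows of that length, 1 kb away on each side. Centers of neighboring members lay 1711 bp apart at the median, so a window beside a member can fall in another member. How often it did was not counted, and shares beside members are not a background free of accessible regions. The composite element of OCT4 and SOX2 (CATTGT, 1 free base, then ATGCAAA, at most 1 mismatch) was found in 1 of 1455 members, or 0.0687% (95% interval 0.0121 to 0.388), against 172 of 106553 other distal regions, or 0.161% (0.139 to 0.187). These strict letters were rare in both sets, the count in members was 1 and the intervals overlap, so little can be said about a difference. The octamer ATGCAAAT, which overlaps the composite element, was found in 28 members, or 1.92% (1.33 to 2.77), against 2.32% (2.23 to 2.41), and in 1.31% of the windows beside members. The 28 centers lay in 26 clusters, and 2 clusters held 2 of them. The SOX letters CATTGTT were in 3.30% (2.50 to 4.35) of members and 3.99% of the windows beside them, against 4.53% (4.404 to 4.65) and 3.33% for the other distal regions. The interval of the members lay below the share of the other distal regions. Outside the multicopy clusters the SOX share was 3.19% (2.34 to 4.33). Counted by chromosome, the SOX share was lower in members on 13 of 19 autosomes and higher on 6.

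Besides the SOX letters, the AP-2 and CTCF letters had a lower share in members, with intervals that lay below the shares of the other distal regions. Intervals cover counting error over regions, which are not replicates, and no test was made. GCCNNNGGC, the palindrome of AP-2 factors, was in 5.50% (4.44 to 6.79) of members against 8.08% (7.92 to 8.24) of other distal regions, lower on 16 of 19 autosomes. AGNGGGCGC, from the core of the motif of the insulator protein CTCF, was in 0.893% (0.523 to 1.52) against 1.61% (1.53 to 1.68), lower on 15 of 19 autosomes, and no cluster held more than 1 such center. Outside the multicopy clusters the AP-2 share was 4.99% (3.90 to 6.35), and the CTCF share was 1.06% (0.622 to 1.81), an interval that includes the share of the other distal regions. KLF letters (GGGNGTGG) were in 10.0% (8.59 to 11.7) of members against 9.78% and were the most widespread, present in 106 clusters and repeated in 34. In clusters of 8 or more they were in 5.45% (3.27 to 8.93). In those of them that were mainly not copied the share was 6.04% (3.41 to 10.5), an interval that includes the 9.78% of the other distal regions.

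The other motifs had overlapping intervals. ESRRB letters (TCAAGGTCA) were in 1.10% of members against 1.35%, TEAD letters (CATTCCA) in 5.02% against 4.71%, GATA letters (AGATAAG) in 2.27% against 2.62%, and STAT letters (TTCCNGGAA) in 0.825% against 0.936%. AP-1 letters (TGANTCA) were in 6.46% (5.31 to 7.84) against 7.40% (7.24 to 7.56). None of the 11 motifs was found in 997 members (68.5%), against 63.5% of the other distal regions. Members are slightly narrower than the other distal regions, and the part of width, of masked bases and of copied DNA in these differences was not tested.

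**Figure D4:**
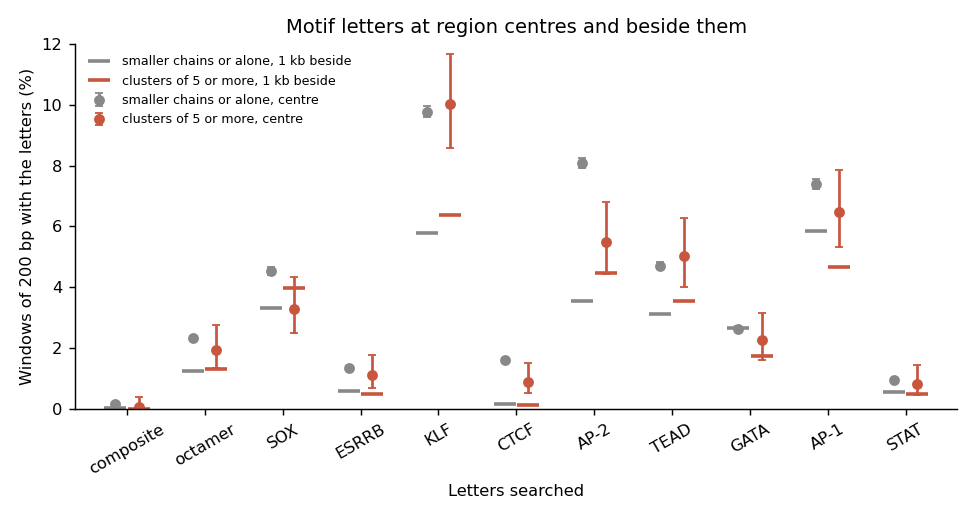
Percent of 200 bp windows with each set of motif letters, at region centers (points, bars are 95% Wilson intervals over regions) and in windows 1 kb to either side (dashes), for members (red) and other distal regions (gray). The members' intervals lie below the gray points for SOX, CTCF and AP-2.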

How the data were processed

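The deposited list gives positions of merged ATAC-seq peaks in bp, and the authors gave no score, read number or value per sample with them (0 columns belong to a sample). The authors aligned reads to mm10 with STAR 2.6.1c, removed duplicates with Picard, called peaks with MACS2 2.1.1.20160309 and merged the peaks of all experiments on both lines with BEDTools. The paper then dropped peaks over 5 kb, peaks also found in input samples and blacklisted peaks. The deposited list still held 14 autosomal regions over 5 kb, so it was not fully filtered in this way. Members were not checked against input or blacklisted peaks, and the paper may have left some of them out. How reads with several matches were placed, which bears on the copied regions, is not given in the sources used here. Depth is unknown and no replicate could be left out.

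Distances used all TSSs of GENCODE M21 and coordinates count from 1. Clusters were named by the nearest protein-coding TSS: the 12 with the most regions, the 10 genes nearest to the most clusters, and list genes within 50 kb (up to 8 a list). Sequence printing by the same rule found none, so the choice of sequences, and of the genes said to be so, was made with their values in view. The members and gene lists were chosen with earlier results of these data known. Copies were exact matches of the central 31 bases on either strand. "Soft-masked" follows the reference. Intervals are 95% Wilson intervals over regions or genes and cover counting error only, and regions of a cluster share their surroundings. The alternatives changed the gap, the chain size, the TSS set, the distance measure, the width limit, the joining of regions, the motif window and the mismatches. On simulated data, 656 of 656 clusters, 1100 of 1100 planted motifs and 300 of 300 copy numbers were recovered. Python 3.11.15, NumPy 2.4.6, pandas 2.3.3 and SciPy 1.17.1 were used.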

Additional observations from a re-analysis of the deposited data

How the results depend on the processing

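Sizes followed the definition of a cluster, while shares over members moved less. The number of members (1455) was 562 with gaps of at most 2 kb, 6156 with gaps to 5 kb, 3863 for chains of 4 or more, 690 for chains of 6 or more and 3815 with no lower limit on width. In the same order, the number of clusters (245) was 93, 1034, 847, 92 and 642, and the median span (8844 bp) was 6229, 13059.5, 6420, 10644.5 and 7843 bp. The number of pluripotency factors with a cluster within 50 kb (2 of 25) was 1, 12, 8, 1 and 6, and 4 with TSSs of protein-coding genes only. The share of all protein-coding genes (2.00%) moved as well, to 0.658%, 8.94%, 6.71%, 0.798% and 4.89% in that order, and to 2.48% with TSSs of protein-coding genes only. The share of members in introns (45.9%) was 48.5% with no lower limit on width and 48.5% without the 37 multicopy clusters, an alternative chosen after seeing the data, which also gave a median GC content of 48.8%. The share with an octamer (1.92%) was 3.02% in the central 400 bp. The composite element (0.0687%) was found in 0 members with gaps of at most 2 kb, for chains of 6 or more and with no mismatch, and in 1.37% with at most 2 mismatches. The shares at 400 bp and at 2 mismatches were not set beside those of the other distal regions, so they show no difference between the sets. The other 41 of 70 values stayed within 1.5 times the count or inside the 95% interval. The cause of each change was not tested beyond the definition itself. No paired analysis was possible because values per sample are missing from the deposited positions. For the same reason no replicate was left out, and a stricter peak threshold could not be applied, since no score is given. Sequencing depth limits which regions were called, by an amount that is unknown here.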
